A study of Mus musculus with 8 samples.

Results

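HOX genes encode homeodomain transcription factors that give cells of the body axis their position from head to tail. In mammals they lie in 4 clusters, and genes of the same rank in different clusters, called paralogs, carry the same number. Low numbers are used towards the hindbrain and high numbers towards the tail, and the order along each chromosome matches the order along the body. In the spinal cord, paralogs 4 to 8 mark cervical and brachial levels, 8 and 9 thoracic levels, and 10 to 13 lumbar and sacral levels. Their best known role there is the choice of motor neuron columns and pools. Astrocytes arise from the same ventricular zone as these neurons.

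The genes described are the 38 whose symbol in the authors' table is a HOX letter from a to d followed by a number, out of 39179 genes counted. They comprise 11 Hoxa, 10 Hoxb, 9 Hoxc and 8 Hoxd genes. Hoxd4 is not analysed here. RNA came from Aldh1l1-GFP+ astrocytes sorted by flow cytometry from mouse spinal cord at postnatal days 12 to 14 in a mixed swiss-webster strain. The 4 control libraries (S1, S2, S6 and S7) are cre-negative, and their genotype is labelled wild-type/Aldh1l1-GFP+. The 4 conditional knockout (cKO) libraries (S3, S4, S5 and S8) carry Aldh1l1-cre and Kir4.1-floxed/floxed alleles together with the same GFP reporter. Kir4.1, encoded by Kcnj10, is the inward rectifier potassium channel of astrocytes, and the study's title concerns its part in how astrocytes act on fast motor neurons and in peak strength. Aldh1l1 elements drive both the reporter used for sorting and the cre, and the labels do not say how much of the cord went into each library. They call the libraries biological replicates without saying whether each is 1 animal.

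Each library held between 13892736 and 25065686 gene reads and detected 17312 to 20470 genes. Kcnj10 fell to 1.87% of its control level, with 27.2 to 37.6 CPM in cKO and 1181 to 2306 CPM in controls, and had an adjusted p of 7.52e-08 in edgeR's quasi-likelihood test. CPM is a gene's reads scaled to a common library size, here after TMM adjustment for composition. Aldh1l1 rose: controls were at 139 CPM ± 8.65 and cKO at 282 CPM ± 48.8 (SD, n = 4 each), at an adjusted p of 0.0179 in the same edgeR test. That call was lost without control S2, control S6 or cKO S4 (adjusted p of 0.0655, 0.0705 and 0.0618 in edgeR) and with FPKM values (0.0922 and 0.0982 in limma). The 15 astrocyte markers summed to 44552 and 39579 CPM in control S1 and S2, and to 25923 and 26155 CPM in control S6 and S7. In cKO they summed to 31279 to 39266 CPM. The cause of the split among controls was not tested. Each of the 15 markers had counts. Besides Aldh1l1, 1 of them passed the edgeR test: Aqp4, the astrocytic water channel, rose to 214% of control, with 1588 to 2454 CPM in controls and 3373 to 5268 CPM in cKO and an adjusted p of 0.0243. The Aqp4 call was lost with FPKM values (0.135 and 0.1097 in limma) and without any 1 library except control S1 or cKO S3 (up to 0.105 in edgeR). Ntsr2, named after its values were seen, was at 36.6% of control with no overlap and an adjusted p of 0.0544 in the same edgeR test. The 6 motor neuron markers counted summed to at most 2.91 CPM in controls and 4.39 CPM in cKO. The labels name no batch, and no sex or pairing of animals.

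The clusters lie on different chromosomes (GRCm38, GENCODE M21 annotation). Hoxa genes span 52155590 to 52260880 on the minus strand of chromosome 6, and Hoxb genes span 96194316 to 96368256 on the plus strand of chromosome 11. Hoxc genes lie between 102921103 and 103036852 on the plus strand of chromosome 15, and Hoxd genes between 74668310 and 74765142 on the plus strand of chromosome 2. In 11 of the 38 genes some exon bases are also exon bases of another counted gene, most often an antisense transcript, so that reads there cannot be assigned without strand. The share was 52.9% for Hoxb3 and 27.3% for Hoxb2, both with the antisense gene Hoxb3os, 35.0% for Hoxa11 with Hoxa11os, 20.4% for Hoxa7 with Hoxaas3, 18.2% for Hoxa3 and less for the others.

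RefSeq's table of gene start regions (GRCm38.p6, 300 bases around each start) held 23 regions for 21 of the 38 genes. A pair of neighbours is shown because Hoxd8 had the most reads of all HOX genes and Hoxd9 the lowest p of the comparison described further on. Capitals mark the homeodomain core TAAT on either strand.
Hoxd8, chr2:74704365-74704664, plus strand: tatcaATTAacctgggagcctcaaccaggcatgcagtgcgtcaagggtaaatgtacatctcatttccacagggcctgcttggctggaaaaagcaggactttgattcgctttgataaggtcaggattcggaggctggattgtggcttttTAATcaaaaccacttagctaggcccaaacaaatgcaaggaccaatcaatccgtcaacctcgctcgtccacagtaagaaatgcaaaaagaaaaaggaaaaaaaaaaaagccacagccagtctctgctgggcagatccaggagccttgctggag
Hoxd9, chr2:74697513-74697812, plus strand: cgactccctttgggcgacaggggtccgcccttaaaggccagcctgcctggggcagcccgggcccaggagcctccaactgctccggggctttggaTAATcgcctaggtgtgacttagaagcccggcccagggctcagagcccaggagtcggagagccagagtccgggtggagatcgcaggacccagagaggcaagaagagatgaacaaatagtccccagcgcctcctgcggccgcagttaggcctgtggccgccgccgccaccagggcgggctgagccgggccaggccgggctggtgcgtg
The Hoxd8 region holds 6 CG dinucleotides and 2 matches to TAAT, and the Hoxd9 region 20 and 1. The median was 15 CG over the 23 HOX regions and 7 over all 32851 regions of the same length. TAAT was found in 19 of 23 HOX regions (82.6%) and in 58.0% of all. The joint site of HOX proteins with their cofactor PBX, TGATNNAT on both strands, which can itself contain TAAT, was found in 4 HOX regions (17.4%: Hoxa2, Hoxb1, Hoxb8 and Hoxd11) and in 8.85% of all, and in neither of the printed regions. These matches describe letters only.

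HOX transcripts were present from one end of the clusters to the other. Of the 38 genes, 37 had at least 1 count, 29 had counts in all 8 libraries, and 31 had a mean of at least 1 CPM. Hoxd12 had 0 counts in every library. Together the HOX genes took 0.0310% to 0.0351% of gene reads in controls and 0.0329% to 0.0483% in cKO. Values for single libraries are given throughout in the order S1, S2, S6, S7 for controls and S3, S4, S5, S8 for cKO. The HOX sum was 364, 334, 329 and 329 CPM in controls, and 326, 385, 455 and 354 CPM in cKO. The groups overlapped, and cKO S5 was highest.

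Per kilobase of exon, levels by paralog number were highest in the middle of the series and low at both ends. The unit here is CPM per kilobase of exon, which allows levels of different genes to be set side by side. It depends on the gene models used for length. In the authors' FPKM values paralogs 3 and 9 weigh more, with control means of 20.3 for Hoxa3 and 31.1 for Hoxa9, against 10.8 for Hoxa6. The sums and shares below hold for the exon lengths used here. In controls, paralogs 6 and 8 were highest, at 27.5 ± 2.74 and 31.2 ± 3.60 CPM per kilobase summed over clusters (SD, n = 4 each). Paralog 5 was at 16.3 ± 4.00, paralog 10 at 15.3 ± 4.61 and paralog 9 at 12.1 ± 1.98. Paralog 7, with only Hoxa7 and Hoxb7 in the mouse, was at 6.90 ± 1.72. Paralog 12 was at 1.05 ± 1.63 and paralog 13 at 2.09 ± 2.48. In cKO, paralog 6 was at 39.8 ± 7.49 and paralog 8 at 30.1 ± 5.49. The paralog 6 sums ran from 24.8 to 31.1 in controls and from 29.8 to 45.9 in cKO, so they overlapped. Paralogs 4 to 8 held 64.2% to 68.4% of HOX CPM per kilobase in controls and 65.0% to 70.6% in cKO. Paralogs 10 to 13 held 12.2% to 18.8% in controls and 11.3% to 17.0% in cKO, and paralogs 1 to 3 held 7.37% to 10.7% and 5.23% to 8.46%. Because each library pools cells of the dissected cord, fewer cells from 1 level and less RNA per cell at that level cannot be told apart.

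**Figure D1:**
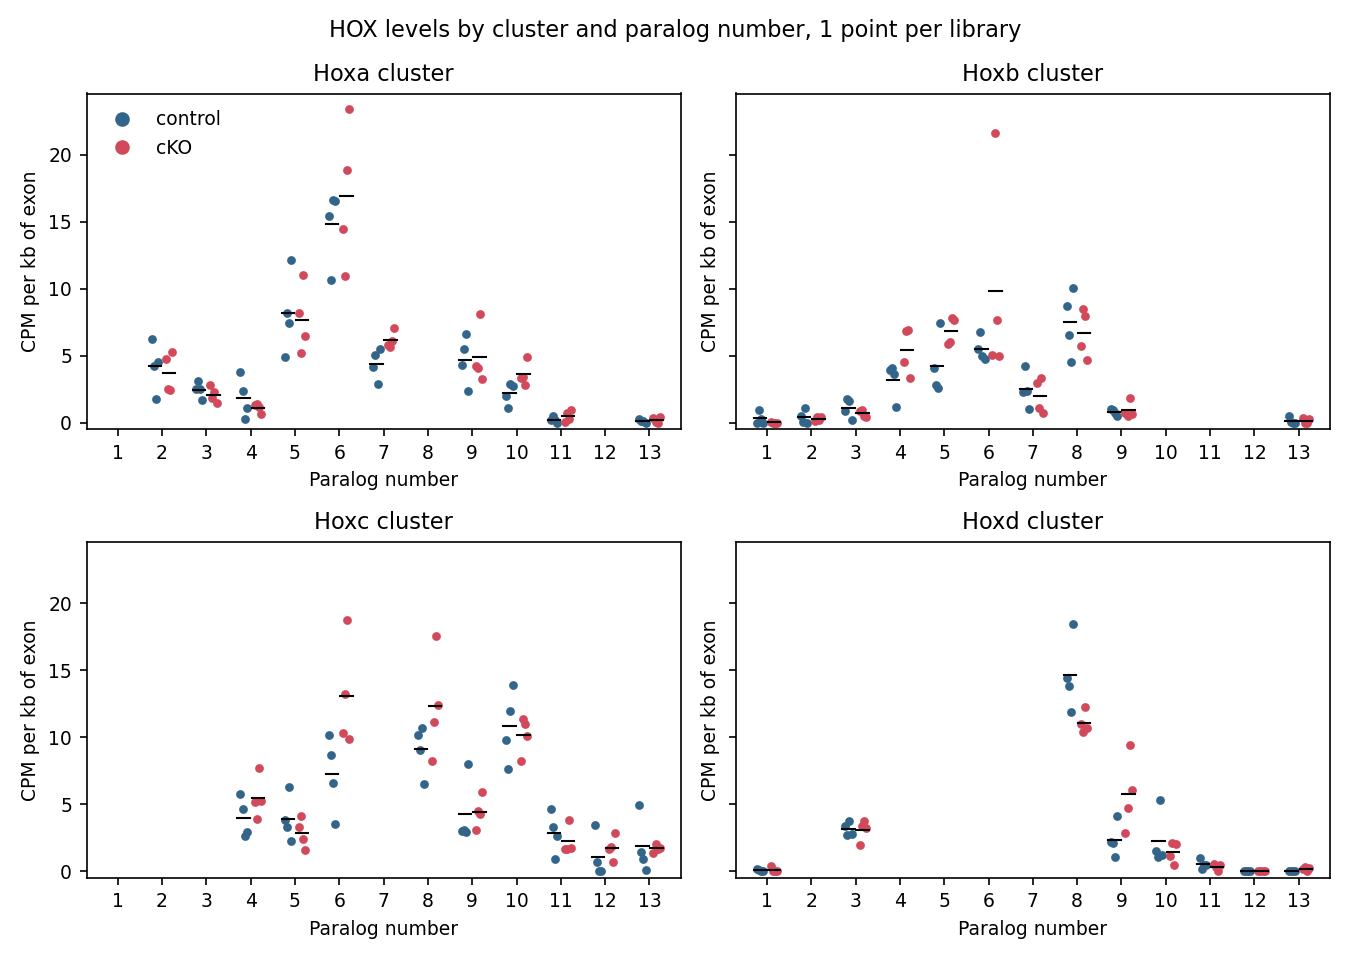
CPM per kilobase of exon (vertical axis) for the HOX genes reported, by paralog number (horizontal axis), 1 panel per cluster, with 1 point per library (blue control, red cKO) and black bars at group means. Hoxa6 and Hoxd8 reach control means of 14.8 and 14.6, while paralogs 11, 12 and 13 each sum to at most 5.80 over the clusters in any library.

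Among single genes in controls, Hoxa6 and Hoxd8 had the highest level per length, 14.8 ± 2.81 and 14.6 ± 2.77 CPM per kilobase, a difference far within their spread. Hoxc10 (10.8 ± 2.68), Hoxc8 (9.11 ± 1.88), Hoxa5 (8.17 ± 3.01), Hoxb8 (7.48 ± 2.44) and Hoxc6 (7.23 ± 2.89; SD, n = 4 each) followed, with library ranges that overlapped from each gene to the next. This order depends on the gene models used for length. In the authors' FPKM values the highest control means were 31.1 for Hoxa9, 26.6 for Hoxd8 and 20.3 for Hoxa3, against places 9, 2 and 20 per length here. Hoxa9 and Hoxa3 have 5580 and 6014 exon bases in the annotation used, and Hoxa6 has 874.

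The library profiles resembled each other. Across the 38 genes, which are not independent, Spearman's rho between 2 libraries was 0.815 to 0.912 for the 6 control pairs, 0.888 to 0.927 for the 6 cKO pairs and 0.809 to 0.934 for the 16 pairs across groups. All points share the library's depth.

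Loss of Kir4.1 was then compared gene by gene. Of the 38 HOX genes, 32 had enough reads to be tested in edgeR's quasi-likelihood fit over 14757 genes, and 0 had an adjusted p under 0.05, against 0.318% of all genes tested (0.203% with higher values in cKO). DESeq2, limma-voom and the other settings tried also called 0, with 5 HOX genes at an unadjusted p under 0.05 in DESeq2 (15.6% of 32, against 12.8% of all genes in that fit) and 4 in limma-voom (12.5%, against 10.6%). In edgeR, 2 had an unadjusted p under 0.05, Hoxd9 and Hoxc6, or 6.25% of the 32, against a background of 9.81%. Both had higher values in cKO, a direction that held 5.03% of all genes tested, and the opposite one held 4.77%. The adjusted p ranged from 0.365 to 0.980. Log2 fold changes of cKO over control were above 0 for 15 and below 0 for 17 genes, or 18 and 14 with library totals as the scale, which moves the median of all genes from −0.02 to 0.09. Their median was −0.06, and −0.02 over all genes tested. Control and cKO libraries were fully separated for 1 of 32, Hoxa7 (3.12%, background 6.34%). It was higher in cKO, which held for 3.39% of all genes tested, and 0 HOX genes were separated the other way (background 2.94%).

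These fits leave room for moderate changes. The 95% interval of the log2 fold change lay within 1 in either direction (a 2-fold change) for 10 of the 32 genes and reached beyond it for 22. Its width ran from 0.842 for Hoxd8 to 5.08 for Hoxc12. The biological coefficient of variation, the spread between libraries beyond counting error, had a median of 0.408 over the 32 genes and 0.375 over all genes tested.

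**Figure D2:**
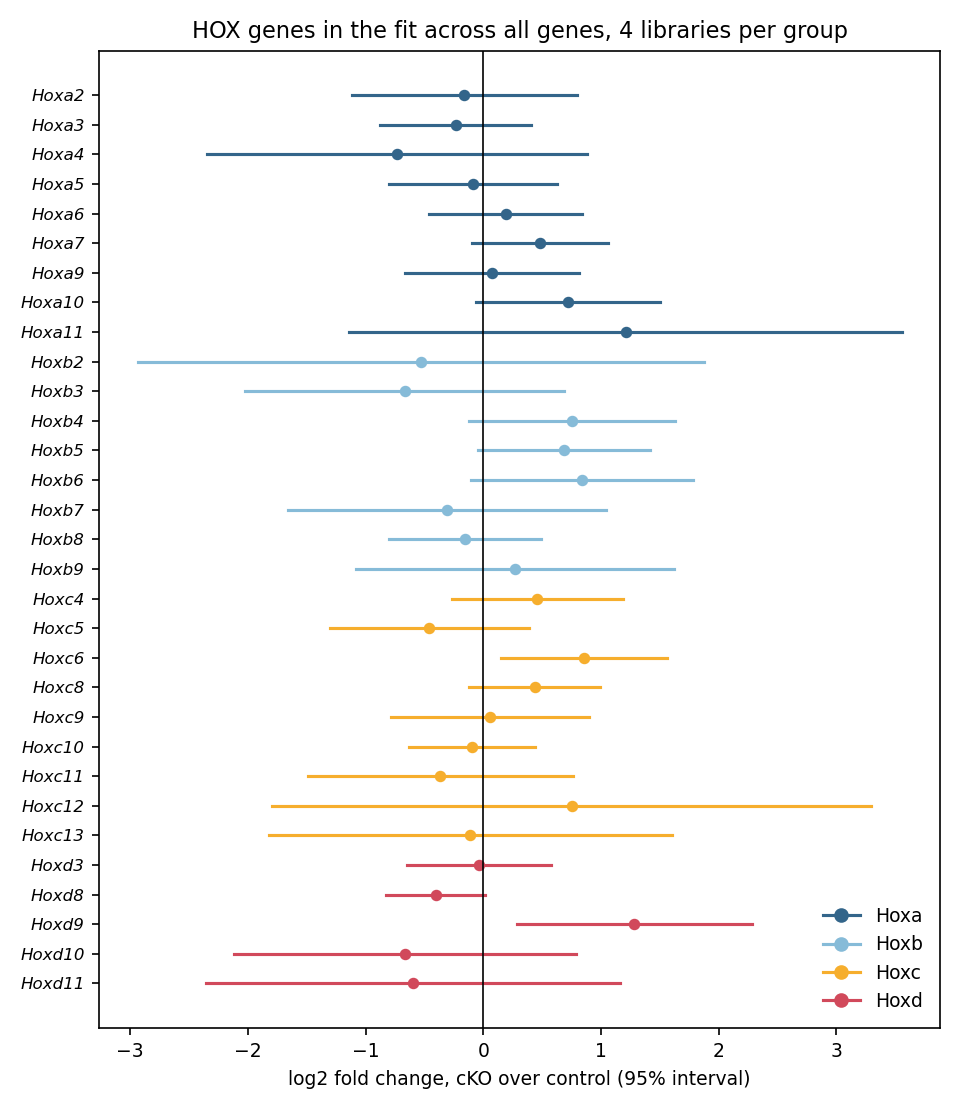
Log2 fold change of cKO over control (points) with its 95% interval (lines) for the HOX genes tested and reported, in cluster and paralog order, colours by cluster. The intervals of Hoxc6 (0.15 to 1.56) and Hoxd9 (0.28 to 2.28) leave out 0, and no gene passed after adjustment over all genes.

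The Hoxd cluster held both the gene with the most reads and the gene with the lowest p. Values for single genes are in CPM. Hoxd9, a paralog 9 gene at the border of thoracic and lumbar levels, was at 4.63, 4.44, 2.31 and 8.76 in controls and at 6.08, 10.02, 20.1 and 12.97 in cKO. Control S7 lay above cKO S3, and cKO S5 was highest. Its log2 fold change of 1.28 (standard error 0.46) had an unadjusted p of 0.0158 and an adjusted p of 0.365 in edgeR's quasi-likelihood test. The authors' deposited table gave Hoxd9 an adjusted p of 0.135. Hoxd8, its neighbour, was at 39.6, 37.9, 32.6 and 50.7 in controls and at 30.1, 28.4, 33.6 and 29.4 in cKO. Only cKO S5 exceeded the lowest control. The log2 fold change of −0.40 (standard error 0.19) had an adjusted p of 0.525 in the same edgeR test.

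Other Hoxd genes spread more or lay near 0. Hoxd3 was at 14.01, 11.4, 15.6 and 11.6 in controls and at 8.12, 14.1, 15.6 and 13.5 in cKO, with groups that overlapped almost fully. Hoxd10, a lumbar gene, ranged from 1.97 to 9.67 CPM in controls and from 0.798 to 3.81 in cKO, and Hoxd11 from 0.582 to 4.18 and from 0.171 to 2.30. Hoxd13, the most caudal member, had 0 counts in all controls and 9, 16, 0 and 15 counts in cKO. Set against a floor of 3 counts per control library, Hoxd13 was at least 2.55-fold higher in cKO on average, but it was too low to be tested and cKO S5 was at 0 too. Hoxd1 had 14 counts or fewer in any library. Summed, the cluster stood at 64.8 CPM ± 7.80 in controls and 60.2 CPM ± 8.51 in cKO (SD, n = 4 each).

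The Hoxc cluster, which starts at paralog 4 and is strong in brachial to lumbar cord, had sums close to those of Hoxa in controls, 108 CPM ± 16.3 in controls and 129.97 CPM ± 26.4 in cKO (SD, n = 4 each). Hoxc6, known for its role in brachial motor neurons, was at 24.5, 20.96, 15.8 and 8.43 in controls and at 24.9, 31.9, 45.1 and 23.8 in cKO. The groups overlapped only in that control S1 exceeded cKO S8. A log2 fold change of 0.85 (standard error 0.33) gave an unadjusted p of 0.0211 and an adjusted p of 0.399 in edgeR's quasi-likelihood test.

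Hoxc8 was at 28.8, 25.6, 30.4 and 18.4 in controls and at 23.3, 31.6, 49.6 and 35.1 in cKO. Hoxc10 was at 18.8, 14.6, 22.9 and 26.5 in controls and at 15.7, 21.7, 21.03 and 19.2 in cKO. Hoxc9, which in motor neurons sets the thoracic columns, was at 7.29, 7.42, 7.14 and 19.5 in controls and at 7.41, 10.9, 10.4 and 14.4 in cKO. Control S7 stood well above the other 3 controls for Hoxc9, while its Hoxc6 and Hoxc8 were the lowest of all libraries. Hoxc4 was at 14.8, 12.01, 6.70 and 7.53 in controls and at 13.2, 10.02, 19.8 and 13.4 in cKO. Hoxc5 was at 11.7, 10.1, 19.4 and 7.06 in controls and at 10.2, 12.8, 7.35 and 4.84 in cKO. The adjusted p of these 5 genes was between 0.619 and 0.977 in the edgeR test.

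At the caudal end, Hoxc13 was at 12.2, 3.57, 2.25 and 0.189 in controls and at 3.37, 5.03, 4.16 and 4.28 in cKO. The control libraries thus spanned 193 to 4 counts, and the cKO libraries lay between them. Without control S1 its log2 fold change moved from −0.11 to 1.08, with adjusted p of 0.979 and 0.705 in edgeR's quasi-likelihood test. Hoxc12 ranged from 0 to 3.55 CPM in controls and from 0.684 to 2.95 in cKO, and Hoxc11 from 1.87 to 9.32 and from 3.32 to 7.75.

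**Figure D3:**
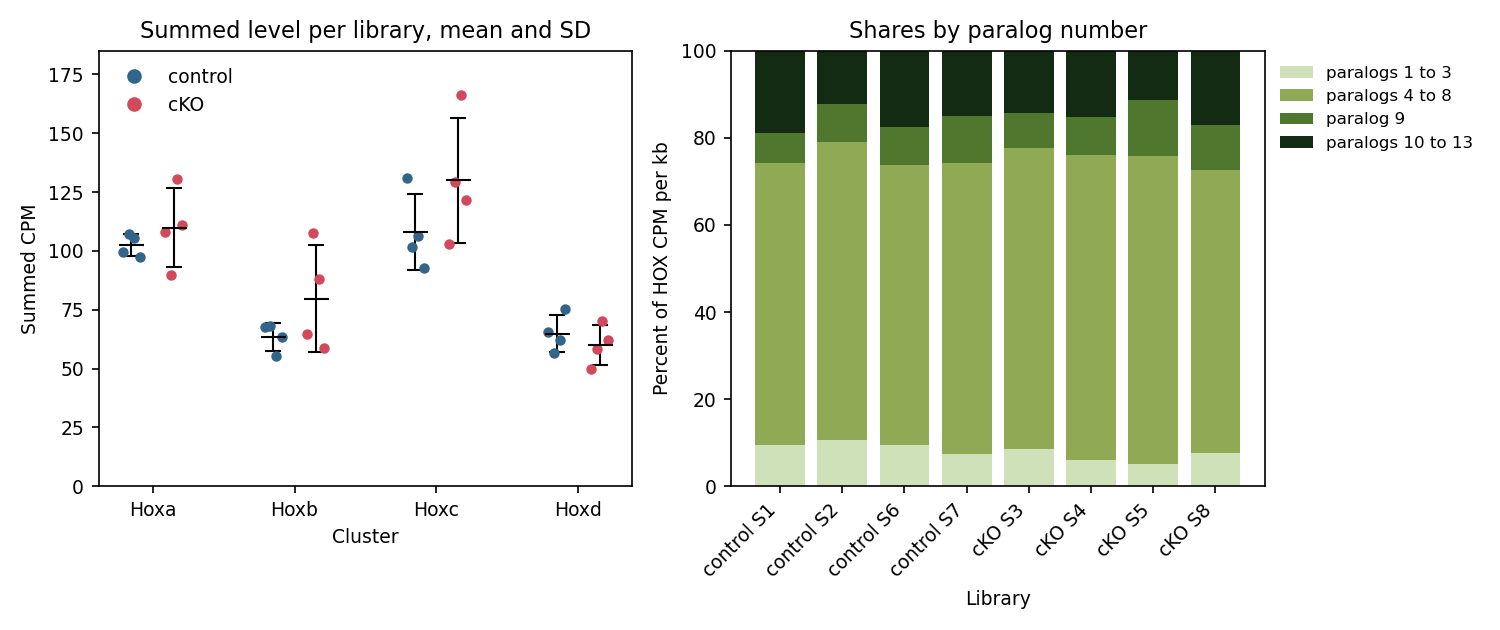
Left, CPM summed over each cluster (vertical axis, from 0) with 1 point per library and mean ± SD. Right, percent of HOX CPM per kilobase from 4 ranges of paralog number in each library. The groups overlap in every cluster. With the exon lengths used here, paralogs 4 to 8 hold 64.2% to 70.6% in all 8 libraries.

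The Hoxa cluster summed to 102.5 CPM ± 4.64 in controls and 109.8 CPM ± 16.7 in cKO (SD, n = 4 each). Hoxa7 was the HOX gene whose groups did not overlap, with 12.04, 14.6, 8.35 and 15.7 in controls and 16.8, 16.2, 17.6 and 20.4 in cKO. The gap between the highest control and the lowest cKO library was small against the spread, and the log2 fold change of 0.48 (standard error 0.27) had an adjusted p of 0.594 in edgeR's quasi-likelihood test. Hoxa10, a lumbar gene, was at 6.46, 3.64, 9.50 and 9.00 in controls and at 10.8, 11.2, 9.23 and 16.01 in cKO. Only cKO S5 fell within the control range. The log2 fold change of 0.72 (standard error 0.36) had an adjusted p of 0.544 in the same edgeR test.

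Hoxa9 was at 23.8, 30.5, 36.7 and 13.2 in controls and at 23.4, 22.7, 45.1 and 18.2 in cKO. Hoxa6 was at 13.5, 9.32, 14.5 and 14.4 in controls and at 12.6, 9.57, 16.5 and 20.5 in cKO. Hoxa5, a cervical gene also known for phrenic motor neurons, was at 9.19, 15.4, 13.95 and 22.8 in controls and at 15.3, 9.75, 20.6 and 12.1 in cKO. None of these 3 had a group that stood apart. Hoxa3 was at 15.3, 18.6, 15.2 and 10.04 in controls and at 16.8, 11.1, 13.6 and 8.77 in cKO. Hoxa2, a hindbrain gene, was at 11.03, 7.57, 3.19 and 8.01 in controls and at 8.38, 4.45, 4.33 and 9.42 in cKO. The adjusted p of these 5 genes in edgeR's quasi-likelihood test was between 0.850 and 0.969. For Hoxa3 the FPKM values differed more than the counts, with group means of 20.3 and 8.86 and log2 fold changes of −1.20 and −1.11 at pseudocounts of 0.1 and 1, against −0.23 from counts; the adjusted p was 0.469 and 0.447 in limma. Hoxa4 ranged from 0.385 to 6.08 CPM in controls and from 0.984 to 2.22 in cKO. Hoxa13, the caudal end, had 10, 3, 5 and 0 counts in controls and 18, 1, 0 and 26 in cKO, and Hoxa11 had at most 49.

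The Hoxb cluster summed to 63.6 CPM ± 5.93 in controls and 79.8 CPM ± 22.6 in cKO (SD, n = 4 each). Hoxb4, Hoxb5 and Hoxb6, neighbours in the cluster, had log2 fold changes of 0.75, 0.69 and 0.84, and their adjusted p was 0.576, 0.537 and 0.558 in edgeR's quasi-likelihood test. Hoxb6 was at 10.8, 13.3, 9.72 and 9.33 in controls and at 9.91, 42.5, 15.05 and 9.72 in cKO. Library cKO S4 stood apart, and without that library the log2 fold change was 0.099. Hoxb5 was at 11.3, 7.93, 7.25 and 20.7 in controls and at 16.4, 16.7, 21.8 and 21.3 in cKO. Only control S7 reached the cKO range there, and without it the log2 fold change was 1.12 with an adjusted p of 0.181 in the same edgeR test. Hoxb4 was at 10.1, 10.4, 9.34 and 3.03 in controls and at 11.6, 17.6, 17.7 and 8.48 in cKO.

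Hoxb8 was at 23.01, 17.3, 11.9 and 26.6 in controls and at 15.2, 22.3, 20.97 and 12.3 in cKO, with no separation of the groups. Hoxb7 stayed between 1.07 and 6.55 CPM and Hoxb9 between 1.18 and 4.73 CPM over all 8 libraries. Hoxb3 and Hoxb2, which share exon bases with Hoxb3os, ranged from 0.805 to 7.50 and from 0 to 3.90 CPM. Hoxb1, a hindbrain gene, had 31 and 13 counts in control S2 and S6, 2 counts in cKO S3 and 0 in the other 5 libraries. Hoxb13 had 16, 1, 0 and 0 counts in controls and 15, 0, 0 and 15 in cKO, and neither of the last 2 genes was tested.

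As 1 figure for axial position, the mean paralog number of each library was computed, with each gene weighted by its CPM per kilobase. It was 7.05, 6.67, 6.90 and 6.99 in controls, and 6.75, 6.92, 6.896 and 7.02 in cKO. The group means were 6.90 ± 0.164 and 6.90 ± 0.112 (SD, n = 4 each), so the cKO libraries lay within the control range. With the authors' FPKM values as weights the means were 6.68 and 6.91, and with log2 weights 6.77 and 6.96. Within the Hoxa cluster alone the mean was 5.73 ± 0.290 in controls and 6.13 ± 0.171 in cKO, with control S6 (6.16) inside the cKO range. Within Hoxb, Hoxc and Hoxd it was 6.12, 8.11 and 7.66 in controls, and 5.95, 7.83 and 7.75 in cKO, again with overlap.

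Genes that mark positions in front of the spinal cord were close to absent. Otx2, a forebrain and midbrain gene, had 0 counts in all 8 libraries, as had Emx1 and Emx2. The 9 genes of this list summed to 0 CPM in every control and to 0.300 to 3.02 CPM in cKO, with cKO S5 highest. The caudal regulators Cdx1, Cdx2 and Cdx4, which switch on HOX genes in the embryo, had 0 counts in every library.

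HOX proteins bind DNA with the TALE homeodomain cofactors of the PBX and MEIS families. Meis1 was at 48.9, 59.4, 58.2 and 67.1 CPM in controls, and at 45.05, 44.1, 61.5 and 63.9 CPM in cKO. The groups overlapped, and its log2 fold change of −0.12 had an adjusted p of 0.877 in edgeR's quasi-likelihood test. Of 9 TALE genes, 8 were tested and 0 had an unadjusted p under 0.05 in that test, against 9.81% of all genes tested. With so few genes, 0 cannot be told apart from that share.

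Polycomb complexes keep HOX genes silent where they are not used, and Trithorax proteins keep them active. Of 19 Polycomb genes, all were tested, 0 passed after adjustment in edgeR, and 5 had an unadjusted p under 0.05, all with higher values in cKO (26.3% of the list, against 5.03% of all genes tested in that direction). Their median log2 fold change was 0.26, against −0.02 over all genes tested. The 5 genes, named after their values were seen, were Phf19, Cbx2, Cbx6, Pcgf2 and Phc1, whose log2 fold changes were 2.2, 1.58, 0.77, 1.07 and 0.77. Their adjusted p lay between 0.352 and 0.491 in edgeR's quasi-likelihood test. Phf19 had only 10, 8, 19 and 3 counts in controls. The groups overlapped for Pcgf2 and Phc1. For Phc1, cKO S5 was at 113.6 CPM, against 39.3 to 45.5 CPM in the other cKO libraries. Cbx2, a chromobox protein that reads the Polycomb mark, was at 1.08, 1.16, 0.659 and 0.284 in controls and at 3.58, 2.09, 1.82 and 2.01 in cKO, groups that did not overlap, and its adjusted p was 0.480 in edgeR's quasi-likelihood test. Of 12 Trithorax and H3K27 demethylase genes, all were tested, 0 passed after adjustment in edgeR, and 1 in each direction had an unadjusted p under 0.05 (8.33% each, against 5.03% higher and 4.77% lower over all genes tested). Their median log2 fold change was −0.05. Both genes were named after their values were seen. Neither had groups that overlapped, which held for 6.34% of all genes tested, and the gaps were small. The highest control of Kmt2a was at 160.4 CPM and its lowest cKO library at 161.7 CPM. The lowest control of Rbbp5 was at 25.16 CPM and its highest cKO library at 25.08 CPM. Kmt2a, the HOX activator MLL1, had a log2 fold change of 0.46 with an adjusted p of 0.354 in edgeR's quasi-likelihood test. Rbbp5, a core subunit of the same methyltransferase complexes, had one of −0.72 with an adjusted p of 0.468 in that test. Of 18 caudal and retinoid regulators, 10 were tested, 0 passed after adjustment, and 1 had an unadjusted p under 0.05 (10% of those tested, close to the 9.81% over all genes). This was Aldh1a1, a retinaldehyde dehydrogenase named after its values were seen, with an adjusted p of 0.247 in edgeR's quasi-likelihood test, overlapping groups, and 19.0 CPM ± 8.57 in controls and 43.4 CPM ± 17.2 in cKO (SD, n = 4 each).

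Among the noncoding genes of the clusters, Hotair differed most. Hotair is a long noncoding RNA of the Hoxc cluster, known from human cells as a partner of Polycomb complexes. It lies on the minus strand of chromosome 15 from 102944062 to 102947730, between Hoxc12 and Hoxc11, which are read from the other strand. Controls held 33, 9, 24 and 7 Hotair reads, and cKO libraries 73, 107, 106 and 193. In CPM it was at 2.09, 0.655, 1.32 and 0.332 in controls and at 3.73, 4.85, 6.04 and 8.26 in cKO. Every cKO library lay above every control. The log2 fold change of 2.38 (standard error 0.62) had an unadjusted p of 0.00216 and an adjusted p of 0.183 in edgeR's quasi-likelihood test, so it did not pass. DESeq2 on the same counts gave an adjusted p of 0.00414, and the authors' deposited table gave 0.00361. In the remaining alternatives in which it was tested, the log2 fold change lay between 1.24 (FPKM with a pseudocount of 1, which understates low genes) and 2.89, and the adjusted p between 0.141 and 0.401 in edgeR or limma.

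Of the coding neighbours of Hotair, Hoxc11 did not share its pattern of values, and for Hoxc12 the spread was too wide to tell. Hoxc11 was at 5.78 CPM ± 3.11 in controls and 4.495 CPM ± 2.17 in cKO, and Hoxc12 at 1.08 CPM ± 1.68 and 1.81 CPM ± 0.928 (SD, n = 4 each), with adjusted p of 0.869 and 0.883 in edgeR's quasi-likelihood test. The interval of the log2 fold change ran from −1.49 to 0.77 for Hoxc11, below the 2.38 of Hotair. For Hoxc12 it ran from −1.79 to 3.29, which includes that value. Hoxc12 was at 3.55, 0.728, 0 and 0.0474 CPM in controls and at 1.74, 1.86, 0.684 and 2.95 CPM in cKO. Control S1 was thus the highest of all libraries for Hoxc12. Of the exon bases of Hotair, 8.32% are shared with short RNA models. Over the 19 noncoding genes listed, 16 are analysed here, 7 were tested, 0 passed after adjustment in edgeR, and 1 in each direction had an unadjusted p under 0.05 (14.3% each, against 5.03% higher and 4.77% lower over all genes tested). Beside Hotair this was Hotairm1 of the Hoxa cluster, named after its values were seen, at 4.82, 9.17, 5.77 and 15.4 in controls and at 4.44, 5.72, 3.31 and 4.37 in cKO, with a log2 fold change of −0.98 and an adjusted p of 0.483 in the edgeR test. Of its exon bases, 43.1% are shared with other counted genes.

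**Figure D4:**
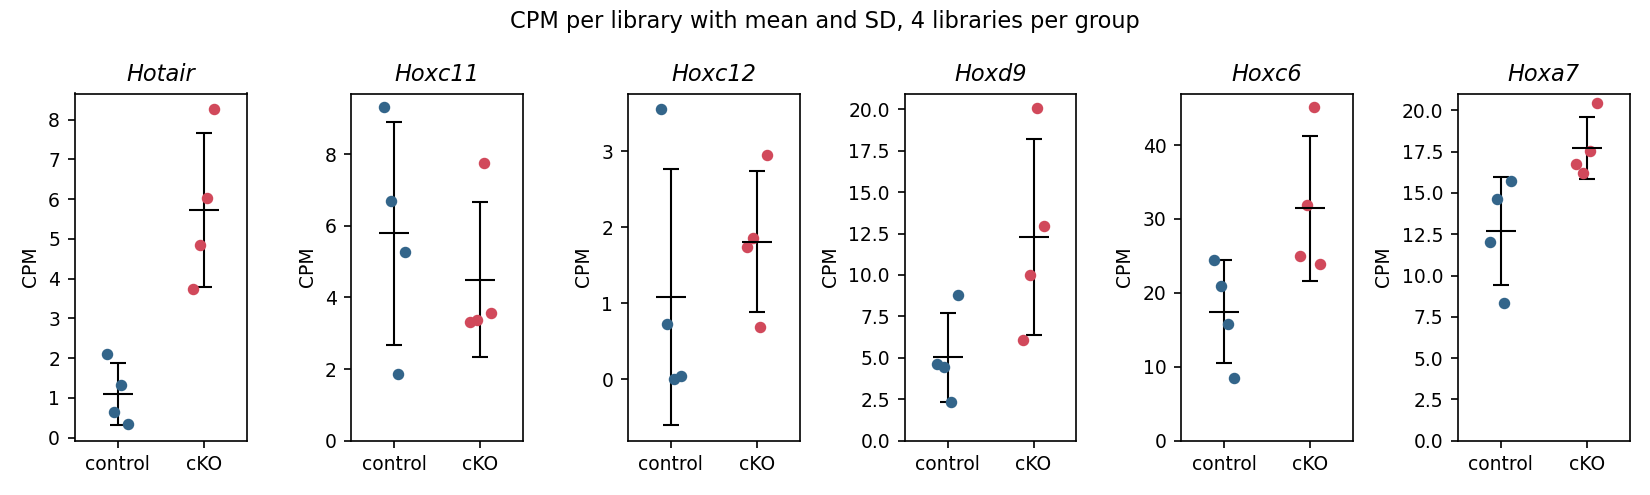
CPM (vertical axis) per library for Hotair, its neighbours Hoxc11 and Hoxc12, and Hoxd9, Hoxc6 and Hoxa7, with mean ± SD of 4 libraries per group. Hotair and Hoxa7 are the panels in which all cKO points lie above all control points, from 3.73 against at most 2.09 CPM for Hotair.

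The clusters also hold microRNA genes, and the mature sequences below show that the copies of a family keep the same seed, bases 2 to 8, in capitals. They are RefSeq sequences on GRCm38.p6. The cluster in brackets is that of the locus read for each sequence and need not be that of every copy.
mmu-miR-10a-5p (Hoxb cluster): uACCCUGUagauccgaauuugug
mmu-miR-10b-5p (Hoxd cluster): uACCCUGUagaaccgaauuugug
mmu-miR-196a-5p (Hoxb cluster): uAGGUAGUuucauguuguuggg
mmu-miR-196b-5p (Hoxa cluster): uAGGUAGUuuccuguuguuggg
The gene rows of Mir10a, Mir196b and Mir196a-2 had 0 counts in all libraries, Mir10b at most 3 and Mir196a-1 at most 1. These rows count reads at the hairpin loci, not mature microRNAs. Hoxa9 shares 85 exon bases with Mir196b, and reads there could not be assigned to 1 gene. The 0 of Mir196b is therefore not informative.

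Markers of other cell types were set beside these values, since fibroblasts and oligodendrocyte lineage cells of the cord also use HOX genes. The 8 fibroblast markers summed to 129, 205, 627 and 252 CPM in controls, and to 186, 82.0, 94.6 and 161 CPM in cKO. The 7 OPC (oligodendrocyte precursor) markers summed to 600 to 1491 CPM in controls and 661 to 817 CPM in cKO, and the 12 oligodendrocyte markers to 1572 to 3207 and 1055 to 2557 CPM. Endothelial markers (9 genes) summed to 47.2 to 70.6 and 23.8 to 58.4 CPM, and neuronal markers (12 genes) to 63.4 to 91.4 and 40.0 to 77.2 CPM. No marker of these lists was at 0 in all libraries, and 0 of them passed the adjusted threshold of 0.05 in edgeR, with 3 OPC, 3 oligodendrocyte, 2 endothelial, 2 fibroblast, 2 neuronal and 2 Schwann cell genes lower at an unadjusted p under 0.05. Of these lists 7, 12, 9, 7, 10 and 4 genes were tested, and 4.77% of all genes tested were lower at that threshold. The 7 Schwann cell markers summed to 226 to 362 CPM in controls and 175 to 278 CPM in cKO. Pdgfra stands in both the OPC and the fibroblast list. Their part in the HOX values was not tested.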

How the data were processed

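RNA-seq was analysed for 8 libraries. Per the submitters' processing notes the tools were FastQC 0.11.4, TopHat2 2.0.11, Bowtie2 2.2.3, HTSeq 0.6.1p1, DESeq2 1.14.1, Cuffnorm and Cufflinks 2.2.1 with build GRCm38. The annotation release and strand setting are not given in the sources used here. The authors deposited raw counts per gene and library. Summary lines that name no gene held 56.4% to 61.7% of reads and were left out. The authors also deposited FPKM values, which were used for group means and, as an alternative, in limma between the groups. In a check over 11658 genes all 8 columns followed a library of their own group, but 5 of 8 followed another one than they are named for. These were control S6 and S7 and cKO S4, S5 and S8. The check cannot tell whether the FPKM columns or the count libraries are misnamed. No FPKM value is therefore given for a single library, and library names throughout are those of the counts. Their deposited DESeq2 table gives group means of scaled counts as a signal, a log2 fold change, its standard error and statistic as scores, and p-values with their adjusted p-values.

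Genes were matched by identifier. Counts were tested with edgeR 4.0.16 (TMM, filterByExpr, quasi-likelihood test, no covariate) over all libraries and genes, with Benjamini-Hochberg adjustment over 14757 genes, a threshold of 0.05 and standard errors from the F statistic. R 4.3.3, limma 3.58.1, DESeq2 1.42.0 and Python 3.11.15 were used, and the fit was tested on simulated data. Exon lengths and coordinates are from GENCODE M21 on GRCm38, and exon length is the union of all annotated exons. Sums over clusters and paralogs got no test. HOX genes are given per library if among the 20 highest with a mean of at least 1 CPM, if their unadjusted p was under 0.05, or if they are the most caudal of a cluster with counts. Of the other genes listed, those with an adjusted p under 0.05 were named (Aldh1l1 and Aqp4), as were Meis1, Cdx2, Otx2, Hotair and Kcnj10. A few genes counted in the totals are not reported here by name. Members, lists and tests were chosen with earlier results of these data known. Nothing says whether libraries are separate animals beyond the term biological replicates, so p-values measure the spread between these samples. Alternatives were RLE scaling, library totals, DESeq2, limma-voom, other filters, Xist level as a covariate, FPKM values and leaving out each library.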

Additional observations from a re-analysis of the deposited data

Results flagged for a closer look

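Over 69 groups of 4 libraries examined, 5 held a library apart from the other 3 of its group, where chance gives about 1 in 20, or 3.45. Hoxb6 was at 42.5 CPM in cKO S4, against 9.72 to 15.05 CPM in the other cKO libraries. Hoxb4 was at 3.03 CPM in control S7, against 9.34 to 10.4 CPM in the other controls, and Hoxc9 was at 19.5 CPM in control S7, against 7.14 to 7.42 CPM. Hoxb13 was at 1.01 CPM in control S1 (16 counts), against 0 to 0.0728 CPM in the other controls. The summed level of all HOX genes was 363.7 CPM in control S1, against 329 to 334 CPM in the other controls.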

How the results depend on the processing

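Of the HOX genes, 0 were called in any of the 17 alternatives, leave-one-out fits (0 to 0) included. No paired analysis was possible because the groups share no replicate numbers. Against 47 changed genes in the whole table, DESeq2 gave 383, a minimum of 1 count (any library) 87, a minimum of 10 (every library) 84, Xist level as a covariate 28, and FPKM values with pseudocounts of 0.1 and 1 gave 8 and 7; leaving out each library gave 4 (without cKO S4) to 45. The group differences in log2 summed cluster level moved by less than 1 SD in all settings, but these differences were themselves small. With FPKM values the sign changed for Hoxa, from 0.088 to −0.063, and for Hoxd, from −0.11 to 0.025. Hoxb and Hoxc stayed above 0 in every setting. The group difference in mean paralog number, −0.0060, was 0.20 with log2 weights and 0.24 with FPKM weights. The cause of these shifts was not tested. Wherever the sign of a named gene changed, its adjusted p (edgeR or limma) was 0.654 or more. With library totals Hoxc10, Hoxa5 and Hoxd3 came to 0.0085, 0.038 and 0.054, and with Xist level Hoxa9, Hoxc10 and Hoxd3 to −0.11, 0.0088 and 0.019. With FPKM values at pseudocounts of 0.1 and 1, Hoxa3 came to −1.20 and −1.11 (−0.23 from counts), Hoxa9 to −0.022 and −0.020 and Hoxc13 to 0.79 and 0.28, and limma-voom gave Hoxc13 1.23. Leaving out 1 library gave ranges of −0.27 to 0.28 for Hoxa9, −0.23 to 0.058 for Hoxc10, −0.34 to 0.027 for Hoxb8, −0.30 to 0.18 for Hoxa5, −0.0074 to 0.35 for Hoxa6, −0.14 to 0.14 for Hoxd3, −0.11 to 0.57 for Hoxc9, −0.42 to 0.086 for Hoxa2 and −0.51 to 1.08 for Hoxc13. Depth limits the genes below 1 CPM, 7 of 38, of which 1 was tested.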

Other observations

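Other homeobox genes used in position also showed values apart, in genes named after their values were seen. Irx5 was at 7.16, 9.75, 4.23 and 3.17 CPM in controls, and at 10.01, 14.7, 23.6 and 10.1 CPM in cKO, with a log2 fold change of 1.27 and an adjusted p of 0.310 in edgeR's quasi-likelihood test. Gbx2 was at 5.64, 2.98, 3.68 and 8.72 CPM in controls and at 0.868, 1.497, 0 and 2.27 CPM in cKO, with a log2 fold change of −2.17 and an adjusted p of 0.422 in the same edgeR test. For both genes the groups did not overlap, which held for 6.34% of all genes tested. En2, a midbrain and hindbrain gene, had 0 counts in all controls and in cKO S3, and 14, 35 and 7 counts in cKO S4, S5 and S8.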
